A study of Mus musculus with 16 samples.

Results

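The 39 genes described here belong to the unfolded protein response and the integrated stress response, the programs by which a cell adjusts translation and protein folding under stress. They were taken by gene symbol from the deposited gene tables of mouse microglia and astrocytes, as 39 of 55414 features in the microglia table and 39 of 56980 in the astrocyte table. All 39 passed the low-count filter in both cell types. Only the symbol Ddit3 stood on 2 rows, of which the row with the higher count sum was used. The genes were divided by role into an ATF4 arm of 15 genes, 7 sensors and regulators, and a chaperone arm of 17 genes that includes 4 genes of endoplasmic reticulum (ER)-associated degradation.

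The study profiled microglia and astrocytes of mice in 4 groups, with 2 libraries per group in each cell type and 16 libraries in all. The genotypes are labelled WT (here WT), Rack1 CKO (CKO), WT AD (AD WT, an Alzheimer's disease mouse model without the knockout) and Rack1 CKO AD (AD CKO, the model with the knockout). The knockout is described as conditional in microglia, so the astrocytes of CKO and AD CKO are cells for which no deletion of their own is described. Which AD model was used, what drives the knockout, the age and strain of the mice, floxed alleles in WT and the isolation of the cells are not given in the labels, and neither is the number of animals behind each library. The extraction protocol speaks of tissue, while the samples are labelled by cell type. The p-values therefore measure only the spread between these libraries, which may be technical. Rack1 encodes a scaffold protein bound to the small ribosomal subunit.

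As background, unfolded proteins in the ER are sensed by the membrane proteins PERK (Eif2ak3), IRE1 (Ern1) and ATF6. IRE1 removes an intron from Xbp1 mRNA, so that a transcription factor is made, and ATF6 is cut to release another. Both raise chaperones, disulfide isomerases and genes that dispose of misfolded proteins. PERK and the kinases HRI (Eif2ak1) and GCN2 (Eif2ak4) phosphorylate the initiation factor eIF2, which lowers general translation and favours translation of ATF4 mRNA. ATF4 then raises genes of amino acid uptake and synthesis. Splicing of Xbp1, phosphorylation of eIF2 and the amount of ATF4 protein were not measured here.

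The microglia libraries summed to between 27741882 and 33933068 counts, and the astrocyte libraries to between 29615853 and 35851170. Levels are CPM, counts scaled with TMM to a library of 1000000, with 2 values per group, 1 for each library. Log2 fold changes are from edgeR's two-sided quasi-likelihood test over the 8 libraries of a cell type. They are given ± an approximate standard error (SE), which edgeR does not report. It was taken as the absolute log2 fold change divided by the square root of the test's F statistic. Rose and fell are used of genes with a Benjamini-Hochberg adjusted p under 0.05 over all tested genes, which were 17318 in microglia and 20116 in astrocytes. Rack1 (ENSMUSG00000020372, mm10 chromosome 11, 48800332 to 48806434, plus strand) stood at 98.1 and 95.2 CPM in WT, 40.4 and 42.0 CPM in CKO, 113 and 115 CPM in AD WT, and 47.2 and 47.8 CPM in AD CKO of microglia, and fell with the knockout by 1.23 without and by 1.26 with the AD model on the log2 scale. In astrocytes it stood at 61.1 and 57.9 CPM in WT, 102 and 95.7 CPM in CKO, 76.6 and 72.9 CPM in AD WT, and 54.7 and 53.3 CPM in AD CKO, with log2 fold changes of 0.74 ± 0.06 (adjusted p = 3.26e-10) in CKO vs WT and -0.47 ± 0.06 (adjusted p = 9.03e-07) in AD CKO vs AD WT. Some results are also given with a length offset, an alternative fit that removes a smooth trend of each library's counts with transcript length. Of 13 cell type marker lists and 2 lists of immediate early and heat shock genes, those with at least 50% of their tested genes called in 1 direction are given beside each comparison, with the range of their summed CPM in the 2 groups. A list is said to rise or fall by that count of genes, whatever its sum did; a list can stand under both, and the summed CPM of neuron and oligodendrocyte precursor markers was lower in some comparisons where the list is given among those that rose. Summed over 10 markers, microglial genes gave 34383 to 54571 CPM in microglia libraries, lowest in CKO, and 8 oligodendrocyte markers gave 2254 to 8598 CPM, highest in CKO. In astrocyte libraries 10 astrocyte markers gave 10098 to 23143 CPM, lowest in CKO, and 8 oligodendrocyte markers 6469 to 18468 CPM, highest in AD CKO. There 6 ependymal and choroid markers gave 7338 to 13584 CPM. In CKO the mean sums of the astrocyte, oligodendrocyte, and ependymal and choroid lists were 10195, 12640.5 and 12671 CPM, in that order. In AD CKO they were 14090, 18390.5 and 8938 CPM. The lists differ in number of genes, so these sums are not shares of cells. In such bulk samples, fewer cells of a type and less RNA per cell cannot be told apart.

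Promoter sequence is shown because 11 of the 17 chaperone arm genes had a positive call in the microglia interaction described after it. RefSeq windows of 250 bases before to 50 bases after the start (GRCm38.p6) were at hand for 35 of the 39 genes, and not for Atf6, Hyou1, Manf and Ppp1r15b. On both strands, 4 elements were searched. The ER stress response element (ERSE) was taken as CCAAT, any 9 bases, then CCACG, and ERSE-II as ATTGG, any 1 base, then CCACG. The element bound by XBP1 was taken as TGACGTGG and the element bound by ATF4 with C/EBP proteins (CARE) as TGATGNAA. ERSE was found in 8 of 15 chaperone arm genes with a window (53.3%), in none of the 15 ATF4 arm genes and in 0.14% of the 27025 genes with a window. Calr, Dnajc3, Hsp90b1, Hspa5 and Pdia6 had both ERSE and the positive interaction call. Canx, Creld2 and Syvn1 held ERSE without the call. Dnajb9, Sdf2l1, Pdia3, Pdia4 and Edem1 had the call without ERSE, and Herpud1 and Sel1l had neither. ERSE-II was found in Herpud1 alone among the 35 genes and in 0.04% of all. CARE was found in 4 of 15 ATF4 arm genes (26.7%), in Herpud1 and in 4.51% of all. TGACGTGG was in none of the 35 windows and in 0.71% of all. The Xbp1 window held none of the 4. A match describes letters in the window and not binding. The chaperone arm was made up of known genes of the ER stress response, after which ERSE is named. Its high share of ERSE was therefore set by the choice of genes. Whether ERSE goes with the interaction call was not tested. The sites of the chaperone genes, and of the ATF4 arm genes that hold CARE, are printed with 10 bases on each side and the fixed letters, or for CARE all 8 letters, in capitals.
Hspa5 ERSE (chr2:34772015-34772053, plus strand): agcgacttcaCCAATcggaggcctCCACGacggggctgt
Hsp90b1 ERSE (chr10:86705523-86705561, plus strand): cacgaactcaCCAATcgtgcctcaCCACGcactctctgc
Hsp90b1 ERSE (chr10:86705628-86705666, minus strand): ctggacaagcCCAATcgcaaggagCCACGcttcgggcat
Calr ERSE (chr8:84847065-84847103, plus strand): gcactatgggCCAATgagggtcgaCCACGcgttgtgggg
Canx ERSE (chr11:50325790-50325828, minus strand): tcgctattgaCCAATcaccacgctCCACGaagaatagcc
Pdia6 ERSE (chr12:17266481-17266519, plus strand): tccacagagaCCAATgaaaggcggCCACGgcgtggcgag
Dnajc3 ERSE (chr14:118937817-118937855, plus strand): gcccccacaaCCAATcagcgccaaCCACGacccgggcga
Creld2 ERSE (chr15:88819510-88819548, minus strand): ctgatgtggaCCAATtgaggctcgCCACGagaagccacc
Syvn1 ERSE (chr19:6046522-6046560, plus strand): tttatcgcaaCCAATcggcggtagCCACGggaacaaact
Herpud1 ERSE-II (chr8:94386367-94386397, plus strand): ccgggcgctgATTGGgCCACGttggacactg
Herpud1 CARE (chr8:94386307-94386334, minus strand): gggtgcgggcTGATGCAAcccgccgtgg
Asns CARE (chr6:7693215-7693242, minus strand): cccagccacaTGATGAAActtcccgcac
Chac1 CARE (chr2:119351039-119351066, minus strand): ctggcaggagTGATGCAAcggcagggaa
Slc7a11 CARE (chr3:50443643-50443670, plus strand): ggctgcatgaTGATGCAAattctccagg
Trib3 CARE (chr2:152344029-152344056, plus strand): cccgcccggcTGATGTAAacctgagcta
Slc7a11 CARE (chr3:50443662-50443689, minus strand): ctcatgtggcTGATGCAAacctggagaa

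In WT cells the 2 cell types differed in which of these genes they held most of, as a description across tables that were normalised separately. The serine synthesis enzymes Psat1 and Phgdh stood at 44.9 and 486 CPM and at 159 and 594 CPM in microglia and astrocytes, in that order (means, n = 2 each). Slc7a11, the cystine transporter subunit, stood at 5.91 and 173 CPM. Higher in microglia were Edem1, which directs misfolded glycoproteins to degradation, at 475 and 32.1 CPM, the sensor Ern1 at 22.8 and 3.82 CPM and Atf6 at 86.9 and 20.9 CPM. The WT mean was higher in microglia for 24 genes and higher in astrocytes for 15. Atf5, Trib3, Chac1 and Asns had WT means of at most 5.25 CPM in both cell types.

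**Figure D1:**
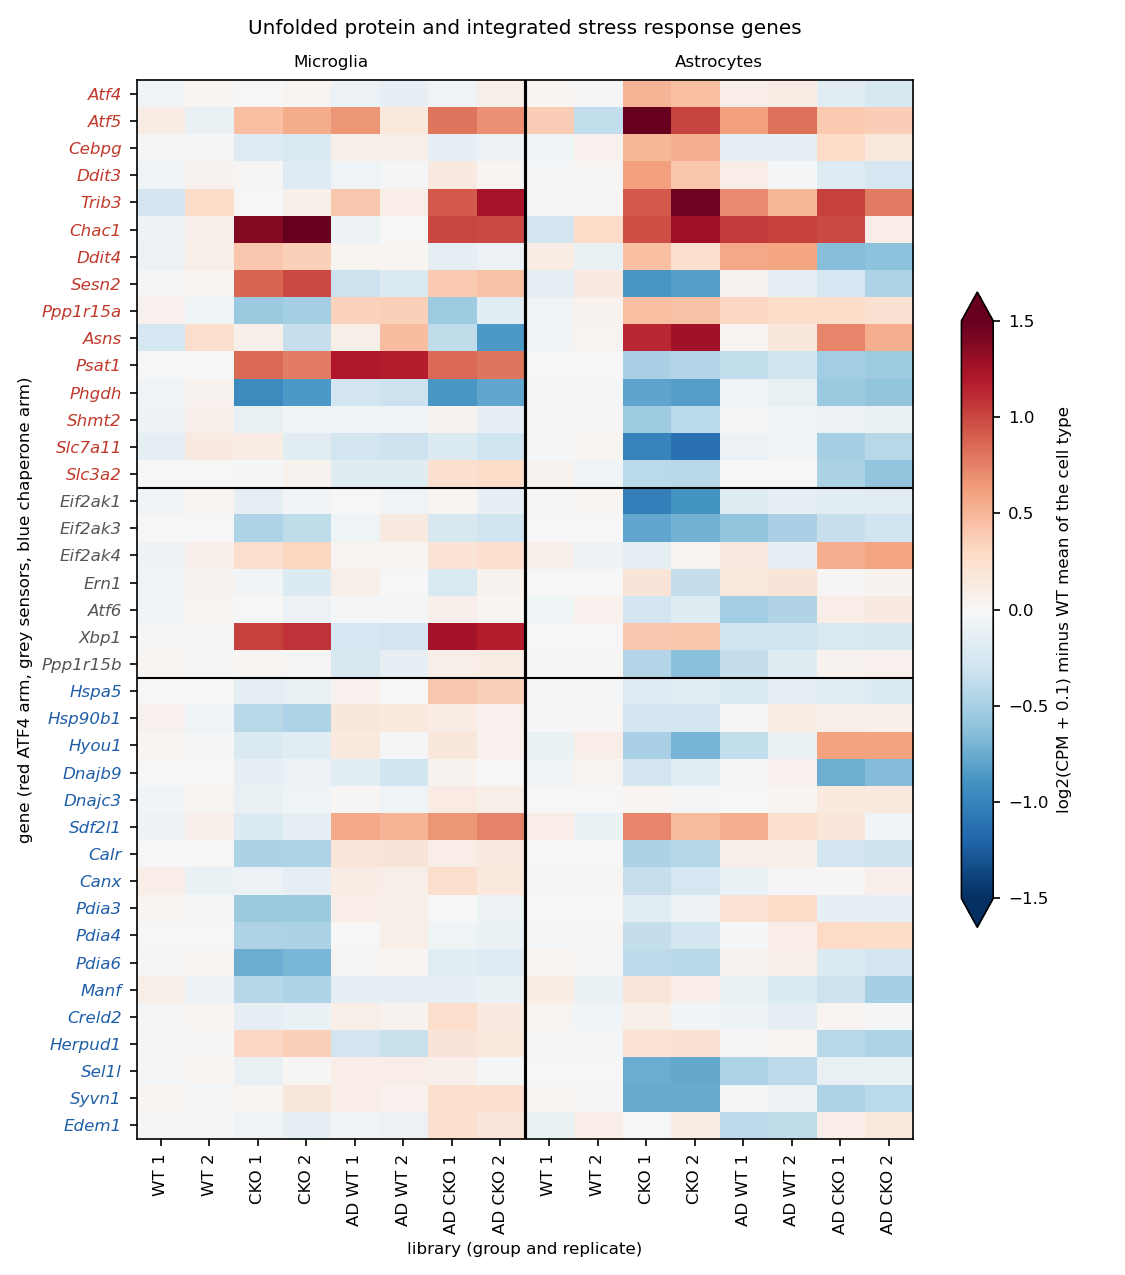
Heat map of log2(CPM + 0.1) minus the WT mean of the same cell type for the 39 genes (rows, by arm) in 16 libraries (columns, 8 of microglia and 8 of astrocytes). Colours end at 1.5 on either side. In microglia Pdia3, Pdia4 and Pdia6 are lowest in CKO, and Xbp1 is high in all 4 knockout libraries.

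Without the AD model, knockout microglia held more Xbp1 mRNA and less of the disulfide isomerases Pdia3, Pdia4 and Pdia6, and Atf4 mRNA did not pass the test. In CKO vs WT, 7 of the 39 genes rose and 12 fell, against 17.7% and 15.9% of all genes tested. Of the sensors and regulators, Xbp1 (ENSMUSG00000020484, mm10 chromosome 11, 5520659 to 5525893, plus strand) stood at 319 and 325 CPM in WT, 655 and 685 CPM in CKO, 269 and 266 CPM in AD WT, and 764 and 730.3 CPM in AD CKO. The 4 knockout libraries lay above all 4 others, and the log2 fold change in CKO vs WT was 1.06 ± 0.04 (adjusted p = 8.77e-18). Eif2ak3, which encodes PERK, fell by 0.42 ± 0.08 on the log2 scale (adjusted p = 1.98e-04). Eif2ak4 rose by 0.28 (adjusted p = 0.0244), a call lost without WT replicate 1 (0.20), CKO replicate 1 (0.29) or CKO replicate 2 (0.24) and with the length offset (0.18). The call was also lost by DESeq2 (0.26), with no filter (0.25) and with the compared groups alone (0.26). Ern1 and Atf6 did not pass, at -0.12 ± 0.11 (adjusted p = 0.426) and -0.04 ± 0.06 (adjusted p = 0.645).

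**Figure D2:**
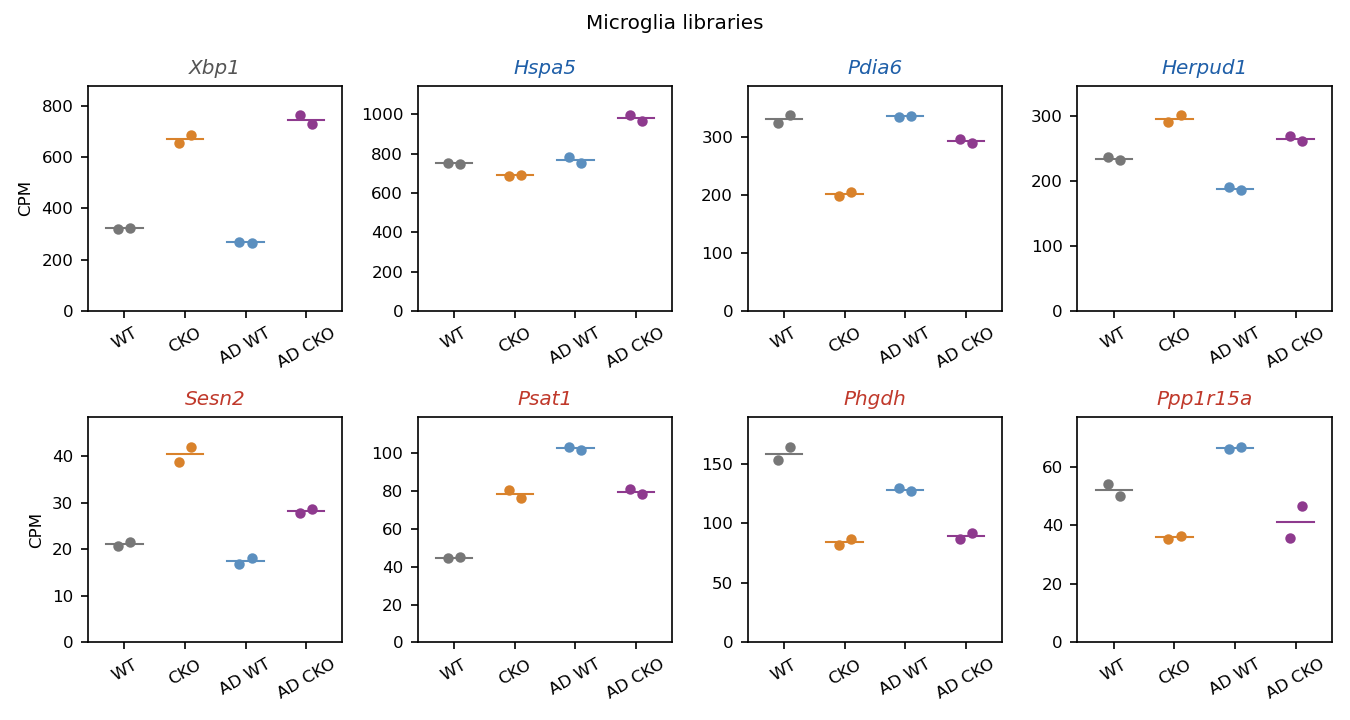
CPM (vertical axes, from 0) of 8 genes in the microglia libraries of the 4 groups (horizontal axes). Points are libraries and lines are means of 2, and gene names are coloured by arm as in the heat map. Xbp1 is higher in all 4 knockout libraries than in the 4 others, and Pdia6 is lowest in CKO.

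The ATF4 arm split. Of its 15 genes, 4 rose and 3 fell (26.7% and 20.0%), against 17.7% and 15.9% of all genes tested. The arm's median log2 fold change was 0.02, against 0.04 over all genes tested. That median was -0.13 without WT replicate 1 and 0.12 without WT replicate 2. Atf4 stood at 73.4 and 77.9 CPM in WT and 76.2 and 78.0 CPM in CKO, with a log2 fold change of 0.03 ± 0.06 (adjusted p = 0.783). Ddit3, the pro-apoptotic factor CHOP, was at -0.08 ± 0.09 (adjusted p = 0.564). Sesn2, a leucine sensor that restrains mTORC1, stood at 20.8 and 21.6 CPM in WT, 38.8 and 42.1 CPM in CKO, 16.9 and 18.3 CPM in AD WT, and 27.9 and 28.8 CPM in AD CKO and rose by 0.93 ± 0.09 (adjusted p = 3.31e-09). Chac1, a glutathione-degrading enzyme at low level, stood at 0.612 and 0.693 CPM in WT, 1.85 and 2.13 CPM in CKO, 0.613 and 0.653 CPM in AD WT, and 1.40 and 1.39 CPM in AD CKO and rose by 1.60 ± 0.40 (adjusted p = 0.00255). Psat1 rose by 0.81 ± 0.06 (adjusted p = 2.29e-11), from 44.7 and 45.1 CPM in WT to 80.7 and 76.5 CPM in CKO. Phgdh, the first enzyme of the same serine pathway, went the other way, from 153 and 164 CPM in WT to 81.6 and 87.0 CPM in CKO, and fell by 0.91 ± 0.06 (adjusted p = 3.06e-13). Ppp1r15a, the stress-induced eIF2 phosphatase subunit GADD34, also fell, at -0.53 ± 0.09 (adjusted p = 1.49e-04). Cebpg, a partner of ATF4, fell by 0.21 (adjusted p = 0.00355). Ddit4 rose by 0.39, a call lost without WT replicate 1 (0.30) and without CKO replicate 1 (0.33).

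In the chaperone arm 1 gene rose and 8 of 17 fell (5.88% and 47.1%), against 17.7% and 15.9% of all genes tested. The arm's median was -0.12, against 0.04 over all genes. The disulfide isomerases Pdia6 and Pdia3 had the largest changes. Pdia6 stood at 325 and 338 CPM in WT, 199 and 206 CPM in CKO, 335 and 338 CPM in AD WT, and 297 and 290.1 CPM in AD CKO, lowest in CKO, and its log2 fold change was -0.71 ± 0.04 (adjusted p = 2.12e-13). Pdia3 stood at 957 and 924 CPM in WT and 639 and 637 CPM in CKO, a change of -0.56 ± 0.04 (adjusted p = 1.48e-12), and Pdia4 changed by -0.47 ± 0.05 (adjusted p = 2.53e-09). The calcium-binding lectin chaperone Calr stood at 712 and 713 CPM in WT and 515 and 517 CPM in CKO, a change of -0.47 ± 0.04 (adjusted p = 4.58e-11). Hsp90b1, the ER form of HSP90, and the secreted ER factor Manf changed by -0.44 ± 0.04 (adjusted p = 1.07e-09) and -0.45 ± 0.08 (adjusted p = 2.48e-05). Hspa5, the central ER chaperone BiP, stood at 753 and 747 CPM in WT and 686 and 693 CPM in CKO and fell, at -0.12 ± 0.04 (adjusted p = 0.0122). Sdf2l1 fell by 0.17 but lost its call without WT replicate 2 (-0.09) and without CKO replicate 1 (-0.17), and with the centred length offset (-0.11). The gene that rose was Herpud1, an ER membrane protein of the degradation machinery. It was the only one of the 35 genes with a window to hold both ERSE-II and CARE. Its level went from 237 and 232 CPM in WT to 292 and 302 CPM in CKO, at 0.34 ± 0.04 (adjusted p = 6.06e-07). The other 3 degradation genes, Sel1l, Syvn1 and Edem1, were at -0.04, 0.11 and -0.09 and did not pass. Among the marker and stress lists, those that rose in CKO vs WT were astrocyte 6 of 10 (WT 335 to 339 CPM, CKO 417 to 420.3 CPM), neuron 6 of 10 (WT 16.3 to 16.6 CPM, CKO 34.7 to 38.0 CPM), border macrophage and monocyte 5 of 7 (WT 219 to 222 CPM, CKO 403 to 404 CPM) and neutrophil 7 of 7 (WT 229 to 246 CPM, CKO 625 to 626 CPM). The lists that fell were immediate early 14 of 19 (WT 8139 to 8996 CPM, CKO 4740.2 to 5097 CPM), microglia 7 of 10 (WT 52077 to 54571 CPM, CKO 34383 to 35679 CPM), ependymal and choroid 3 of 6 (WT 1445 to 1499 CPM, CKO 597 to 597 CPM) and erythroid 4 of 4 (WT 18.2 to 24.2 CPM, CKO 10.5 to 11.2 CPM); their part in the result was not tested.

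Pdia3, Pdia4 and Pdia6 were lower by less, and Xbp1 higher by more, in AD CKO vs AD WT than in CKO vs WT. The interaction described further on tests these differences. In AD CKO vs AD WT, 13 genes rose and 9 fell, against 17.0% and 15.0% of all genes tested. Without AD WT replicate 2 the counts were 7 and 5, and without AD CKO replicate 2 the number risen was 8. Xbp1 rose by 1.48 ± 0.04 (adjusted p = 1.50e-20). Eif2ak3 fell by 0.32 (adjusted p = 0.00398), and by 0.21 (adjusted p = 0.147, not past the threshold) without AD WT replicate 2. Ppp1r15b, the constitutive eIF2 phosphatase subunit, stood at 83.7 and 90.9 CPM in AD WT and 105 and 107 CPM in AD CKO and rose by 0.29 ± 0.06 (adjusted p = 3.11e-04). Ern1 was at -0.11 ± 0.11 (adjusted p = 0.468) and Atf6 at 0.09 ± 0.06 (adjusted p = 0.284).

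Among the ATF4 arm 4 genes rose and 5 fell (26.7% and 33.3%), against 17.0% and 15.0% of all genes tested. The arm's median was 0.04, against -0.0020 over all genes. The median was -0.02 without AD CKO replicate 1. Atf4 was at 0.13 ± 0.06 (adjusted p = 0.129) and Ddit3 at 0.11 ± 0.09 (adjusted p = 0.393). Sesn2 rose by 0.69 ± 0.09 (adjusted p = 1.70e-06). Slc3a2, the heavy chain of several amino acid transporters, stood at 319 and 319 CPM in AD WT and 428 and 439 CPM in AD CKO and rose by 0.44 ± 0.04 (adjusted p = 2.61e-09). Trib3, a pseudokinase that restrains ATF4, stood at 3.44 and 2.78 CPM in AD WT and 4.96 and 6.21 CPM in AD CKO and rose by 0.84 ± 0.25 (adjusted p = 0.00948). That call was lost without AD WT replicate 2 and without AD CKO replicate 2, at 0.70 and 0.67. Chac1 rose by 1.14 ± 0.41 (adjusted p = 0.0350), a call lost without any 1 CKO, AD WT or AD CKO library, at values between 1.09 and 1.19. With all libraries kept, the call was lost by DESeq2 (adjusted p = 0.0765) and limma-voom (adjusted p = 0.0548). In edgeR it was lost with no filter (adjusted p = 0.0706) and with the compared groups alone (adjusted p = 0.0558). Psat1, which had risen without the AD model, fell by 0.37 (adjusted p = 1.93e-05), from 103 and 102 CPM in AD WT to 81.0 and 78.4 CPM in AD CKO. Phgdh and Ppp1r15a fell again, at -0.52 ± 0.06 (adjusted p = 3.81e-08) and -0.69 ± 0.09 (adjusted p = 7.60e-06). Asns, the asparagine synthetase, was low at 3.88 and 5.05 CPM in AD WT and 2.77 and 1.97 CPM in AD CKO and fell by 0.92 (adjusted p = 0.00946). Cebpg fell by 0.20, a call lost without AD WT replicate 1 (adjusted p = 0.0515). Asns lost its call without AD WT replicate 2 (-0.71) and without AD CKO replicate 2 (-0.69).

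In the chaperone arm 7 genes rose and 3 fell (41.2% and 17.6%), against 17.0% and 15.0% of all genes tested. The arm's median was 0.11, against -0.0020 over all genes. The median was 0.05 without the 4 degradation genes and 0.04 without AD CKO replicate 1. Hspa5 stood at 782 and 753 CPM in AD WT and 994 and 963 CPM in AD CKO and rose by 0.35 ± 0.04 (adjusted p = 2.25e-08). Herpud1 stood at 192 and 186 CPM in AD WT and 269 and 262 CPM in AD CKO and rose by 0.49 ± 0.04 (adjusted p = 1.25e-09), and Edem1 rose by 0.27 ± 0.04 (adjusted p = 8.77e-06). Calr, Hsp90b1 and Manf were at -0.07, -0.07 and 0.02 and did not pass. Pdia6 fell by 0.20 ± 0.04 (adjusted p = 7.81e-04). Dnajb9 rose by 0.25 and lost its call without AD WT replicate 2 (0.18) and without AD CKO replicate 1 (0.20). The remaining calls were of Dnajc3, Sdf2l1 and Syvn1 (higher, at 0.13, 0.16 and 0.16) and of Pdia3 and Pdia4 (lower, at -0.13 and -0.13). All 5 were lost without AD WT replicate 2, at 0.09, 0.14, 0.15, -0.14 and -0.09, and all 5 also without AD CKO replicate 2. Dnajc3, Pdia3, Sdf2l1 and Syvn1 were lost without AD WT replicate 1, Dnajc3 and Syvn1 without AD CKO replicate 1 or CKO replicate 1, and Dnajc3 without CKO replicate 2. DESeq2 did not call Dnajc3, Sdf2l1 or Syvn1. Pdia4 was lost with the length offset too (-0.11). The list that rose over AD CKO vs AD WT was border macrophage and monocyte 4 of 7 (AD WT 185 to 186 CPM, AD CKO 291 to 299 CPM). Lists that fell were immediate early 16 of 19 (AD WT 10226 to 10238 CPM, AD CKO 5427 to 5844 CPM), astrocyte 8 of 10 (AD WT 426 to 437 CPM, AD CKO 311 to 317 CPM), oligodendrocyte 7 of 8 (AD WT 3732 to 3736 CPM, AD CKO 2254 to 2307 CPM), endothelial 5 of 7 (AD WT 764 to 775 CPM, AD CKO 532 to 543 CPM), mural 5 of 7 (AD WT 282 to 292 CPM, AD CKO 198 to 199 CPM), neutrophil 7 of 7 (AD WT 441 to 444 CPM, AD CKO 276 to 289.8 CPM) and erythroid 4 of 4 (AD WT 11.1 to 12.1 CPM, AD CKO 1.71 to 2.48 CPM); their part in the result was not tested.

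**Figure D3:**
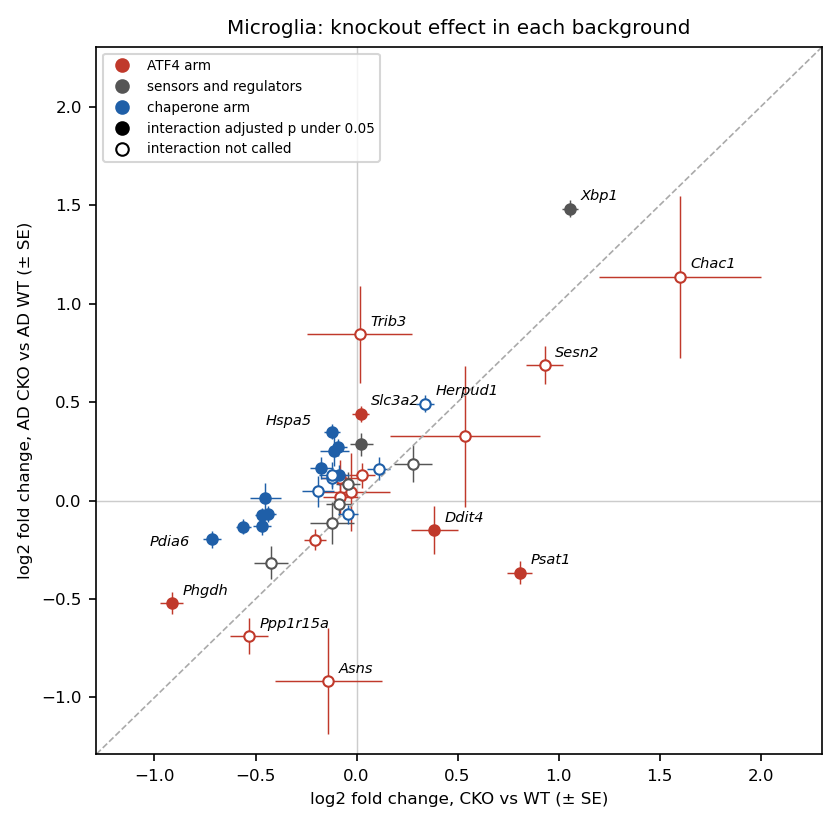
Log2 fold change of each of the 39 genes in microglia in CKO vs WT (horizontal) and in AD CKO vs AD WT (vertical), with bars of 1 SE. Filled points have an interaction adjusted p under 0.05 and the dashed line marks equal effects. Most chaperone arm genes (blue) lie above the line, Pdia6 at -0.71 and -0.20, and Psat1 lies far below it at 0.81 and -0.37.

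The difference between the 2 knockout effects was tested as the interaction, the log2 fold change of AD CKO vs AD WT minus that of CKO vs WT. It was positive past the threshold for 15 genes and negative for 2, against 5.53% and 7.19% of all genes tested. Of the 17 chaperone arm genes 11 were positive and none negative, with a median of 0.34 against 0.01 over all genes. By edgeR at an unadjusted p under 0.05, and by DESeq2 and limma-voom at an adjusted p under 0.05, 0 chaperone arm genes were negative. Pdia6 had an interaction of 0.52 ± 0.06 (adjusted p = 6.55e-07), Hspa5 of 0.47 ± 0.05 (adjusted p = 2.36e-07), Manf of 0.47 ± 0.11 (adjusted p = 0.00328) and Pdia3 of 0.43 ± 0.05 (adjusted p = 1.22e-06). Xbp1 had 0.43 ± 0.06 (adjusted p = 4.60e-06) and Slc3a2 0.42 ± 0.06 (adjusted p = 8.49e-06). Psat1 had the most negative value, -1.17 ± 0.09 (adjusted p = 7.11e-11), and Phgdh a positive one, 0.39 ± 0.08 (adjusted p = 0.00108). Sesn2, Ppp1r15a and Herpud1, whose knockout effects had the same sign in both backgrounds, had interactions of -0.24, -0.15 and 0.15 that did not pass. The other negative call, Ddit4 at -0.54 (adjusted p = 0.0347), was lost without any 1 library other than WT replicate 2 (adjusted p between 0.0578 and 0.131), by DESeq2 (0.0705) and with the first form of the length offset (0.0514). Of the positive calls, Dnajc3 at 0.22 (adjusted p = 0.0420) was lost at a 1 CPM filter and without any 1 library other than replicate 1 of WT. Dnajb9 at 0.36 was lost without replicate 1 of CKO, replicate 2 of AD WT or replicate 1 of AD CKO, and Ppp1r15b at 0.26 was lost without any 1 library other than replicate 2 of WT, replicate 2 of AD WT and replicate 1 of AD CKO. The list with positive interactions was ependymal and choroid 3 of 6, and lists with negative ones were astrocyte 8 of 10, oligodendrocyte 4 of 8, neuron 6 of 10, endothelial 7 of 7, mural 5 of 7, neutrophil 7 of 7 and erythroid 3 of 4; their part in the result was not tested.

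The same contrast can be read from the AD model's side. Without the knockout, in AD WT vs WT, 5 rose and 7 fell, against 10.7% and 8.62% of all. The numbers risen were 3 without WT replicate 2 and 3 without AD WT replicate 1, and 4 fell without WT replicate 1. Psat1 rose by 1.19 ± 0.06 (adjusted p = 1.87e-14) and Sdf2l1, a component of a BiP cochaperone complex, by 0.54 ± 0.06 (adjusted p = 5.02e-08). Phgdh, Herpud1 and Xbp1 fell, at -0.31 ± 0.06 (adjusted p = 1.53e-04), -0.31 ± 0.04 (adjusted p = 5.33e-06) and -0.27 ± 0.04 (adjusted p = 1.28e-05). The other genes that rose were Ppp1r15a, Calr and Hsp90b1, at 0.35, 0.19 and 0.15, and the others that fell were Sesn2, Slc3a2, Dnajb9 and Ppp1r15b, at -0.27, -0.18, -0.23 and -0.18. Of these 7 genes, Calr and Slc3a2 kept their calls under every alternative. Sesn2 was lost without any 1 of the 8 libraries and by DESeq2 (adjusted p = 0.0948). Without WT replicate 1, Dnajb9 and Ppp1r15b were lost, at -0.24 and -0.15. Without WT replicate 2, Ppp1r15a, Hsp90b1 and Dnajb9 were lost, at 0.30, 0.10 and -0.22. Without AD WT replicate 1, Ppp1r15a, Ppp1r15b and Hsp90b1 were lost, at 0.36, -0.12 and 0.14, and without AD WT replicate 2, Ppp1r15a and Dnajb9, at 0.35 and -0.15. Atf4, Ddit3, Hspa5, Ern1, Eif2ak3 and Atf6 were between -0.11 and 0.04 and did not pass. The lists that rose in AD WT vs WT were immediate early 13 of 19 (WT 8139 to 8996 CPM, AD WT 10226 to 10238 CPM), endothelial 7 of 7 (WT 449.6 to 459 CPM, AD WT 764 to 775 CPM), mural 7 of 7 (WT 186 to 189 CPM, AD WT 282 to 292 CPM) and neutrophil 7 of 7 (WT 229 to 246 CPM, AD WT 441 to 444 CPM), and those that fell were microglia 5 of 10 (WT 52077 to 54571 CPM, AD WT 48458 to 48799 CPM) and erythroid 2 of 4 (WT 18.2 to 24.2 CPM, AD WT 11.1 to 12.1 CPM); their part in the result was not tested. With the knockout, in AD CKO vs CKO, 16 rose and 3 fell, against 7.73% and 6.92% of all, and 1 fell without AD CKO replicate 1. Those that fell were Sesn2, Ddit4 and Herpud1, at -0.51, -0.50 and -0.16. Ddit4 was lost without AD CKO replicate 1 (-0.45), and Herpud1 without any 1 of the CKO and AD CKO libraries (between -0.16 and -0.14) and with the first form of the length offset (-0.09). In the chaperone arm 13 of 17 rose and 1 fell, with a median of 0.33 against -0.0013 over all genes. Sdf2l1 rose by 0.87 ± 0.06 (adjusted p = 4.45e-12), Calr by 0.58 ± 0.04 (adjusted p = 1.83e-12), Pdia6 by 0.54 ± 0.04 (adjusted p = 3.30e-10), Pdia3 by 0.53 ± 0.04 (adjusted p = 2.07e-11), Hsp90b1 by 0.52 ± 0.04 (adjusted p = 1.30e-10) and Hspa5 by 0.51 ± 0.04 (adjusted p = 4.06e-11). The ATF4 arm had 2 genes higher and 2 lower and a median of 0.05. Of the lists, ependymal and choroid 3 of 6 (CKO 597 to 597 CPM, AD CKO 1402 to 1408 CPM) rose here. Those that fell were astrocyte 8 of 10 (CKO 417 to 420.3 CPM, AD CKO 311 to 317 CPM), oligodendrocyte 7 of 8 (CKO 8200.1 to 8598 CPM, AD CKO 2254 to 2307 CPM), neuron 6 of 10 (CKO 34.7 to 38.0 CPM, AD CKO 19.3 to 24.5 CPM), border macrophage and monocyte 7 of 7 (CKO 403 to 404 CPM, AD CKO 291 to 299 CPM), neutrophil 7 of 7 (CKO 625 to 626 CPM, AD CKO 276 to 289.8 CPM) and erythroid 4 of 4 (CKO 10.5 to 11.2 CPM, AD CKO 1.71 to 2.48 CPM); their part in the result was not tested.

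The length offset moved these counts. Fitted as first set, it gave 25 risen and 2 fallen genes in AD CKO vs CKO, against 2836 and 942 of all 17275 genes tested with it. Over all genes 75.1% of calls were then upward against 52.8% without it, and likewise 73.5% against 43.5% in the interaction, 39.1% against 52.6% in CKO vs WT and 44.8% against 55.4% in AD WT vs WT. It moved the median of all genes in the interaction from 0.01 to 0.13, so that the 39 genes are read here relative to that shift. Centred on each library's median, a form added after those values were seen, it gave 16 and 3, against 1456 and 1162 of all 17275. In CKO vs WT 13 chaperone arm genes fell with the first form and 9 with the centred form, against 8 without an offset. Of all 17275 genes, 3694 fell with the first form and 2730 with the centred form. In the interaction the chaperone arm counted 15 positive genes with the first form and 12 with the centred form, none negative in either. Of all 17275 genes, 2921 were positive with the first form and 1099 with the centred form.

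Further genes of the same pathways were taken from lists that do not overlap the 39. In CKO vs WT microglia, 5 of 29 tested genes rose and 10 fell on a list of 31 other integrated stress response genes, and 2 of 37 tested genes rose and 17 fell on a list of 37 other ER folding and disposal genes, against 17.7% and 15.9% of all genes tested. Atf3, a stress and immediate early transcription factor, fell by 1.77 ± 0.06, and Gdf15, a secreted stress hormone, rose by 1.93 ± 0.37 on the log2 scale. Pdia5, a disulfide isomerase, fell by 1.55 ± 0.14. In the interaction, 11 of the 37 folding genes were positive and 0 negative, with Spcs3, a signal peptidase subunit, at 0.52 ± 0.07 and P4hb, another disulfide isomerase, at 0.34 ± 0.06. The integrated stress response list counted 1 positive and 1 negative gene among 29 tested. The shares of all genes there were 5.53% positive and 7.19% negative.

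In astrocytes, CKO vs WT gave calls for 33 of the 39 genes: 12 rose and 21 fell, that is 30.8% and 53.8% of them, against 31.6% and 32.4% of all genes tested. In the ATF4 arm the transcription factors Atf4, Atf5 and Cebpg and the enzyme Asns rose, while the serine and one-carbon enzymes Psat1, Phgdh and Shmt2 and the transporter subunits Slc7a11 and Slc3a2 fell. Atf4 (ENSMUSG00000042406, mm10 chromosome 15, 80255184 to 80257541, plus strand) stood at 88.7 and 85.0 CPM in WT, 123 and 119 CPM in CKO, 93.1 and 93.4 CPM in AD WT, and 77.3 and 73.4 CPM in AD CKO. CKO was highest and AD CKO lowest, with log2 fold changes of 0.48 ± 0.05 (adjusted p = 6.33e-08) in CKO vs WT and -0.31 ± 0.05 (adjusted p = 5.89e-05) in AD CKO vs AD WT. Asns stood at 5.08 and 5.41 CPM in WT, 11.6 and 12.7 CPM in CKO, 5.40 and 5.91 CPM in AD WT, and 8.75 and 7.69 CPM in AD CKO and rose by 1.20 ± 0.14 (adjusted p = 8.26e-08) and 0.54 ± 0.14 (adjusted p = 0.00223). Trib3 rose by 1.24 ± 0.21 (adjusted p = 1.80e-05) and Atf5, at most 4.53 CPM, by 1.34 ± 0.28 (adjusted p = 2.24e-04) in CKO vs WT. Slc7a11 stood at 170.3 and 176 CPM in WT, 86.4 and 79.5 CPM in CKO, 163 and 168 CPM in AD WT, and 122 and 129 CPM in AD CKO and fell in both, at -1.06 ± 0.05 (adjusted p = 1.06e-13) and -0.39 ± 0.05 (adjusted p = 1.95e-06). Phgdh fell by 0.81 and 0.50, and stood without the model at 601 and 588 CPM in WT and 344 and 336 CPM in CKO. Sesn2 fell by 0.86 (adjusted p = 1.26e-06).

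Several of these values changed when the length offset was used, for a reason that was not tested. The ATF4 arm median in CKO vs WT was 0.44 without the offset, against 0.01 over all genes. It was 0.02 and 0.01 with the length offset in its first and centred forms, against -0.06 and -0.08 over all genes. Ddit3 was at 0.52 and turned to -0.12 ± 0.08 and -0.13 ± 0.08. Herpud1 was at 0.22 and turned to -0.04 ± 0.05 and -0.05 ± 0.04. Chac1, Ddit4, Atf6, Hspa5 and Sdf2l1 lost their calls in CKO vs WT with either form, with values in that order of Chac1 (0.92 and 0.91), Ddit4 (0.02 and 0.01), Atf6 (-0.05 and -0.06), Hspa5 (-0.06 and -0.07) and Sdf2l1 (0.03 and 0.02). Atf4, Asns, Trib3, Atf5, Slc7a11, Phgdh, Sesn2 and Psat1 kept theirs in that comparison under both forms. Marker and stress lists that rose here were cytosolic heat shock 11 of 12 (WT 4317 to 4356 CPM, CKO 6559 to 6578 CPM), immediate early 18 of 19 (WT 1368 to 1374 CPM, CKO 3883 to 4051 CPM), microglia 10 of 10 (WT 526 to 533 CPM, CKO 2104 to 2167 CPM), neuron 5 of 10 (WT 151 to 163 CPM, CKO 143 to 144 CPM), endothelial 7 of 7 (WT 2291 to 2297 CPM, CKO 6795 to 6896 CPM), mural 6 of 7 (WT 784 to 813 CPM, CKO 1852 to 1859 CPM), fibroblast 4 of 5 (WT 76.7 to 80.5 CPM, CKO 103 to 106 CPM), ependymal and choroid 5 of 6 (WT 7338 to 7573 CPM, CKO 12134 to 13208 CPM), border macrophage and monocyte 5 of 7 (WT 20.8 to 20.9 CPM, CKO 46.5 to 52.2 CPM), lymphocyte 4 of 5 (WT 1.42 to 1.53 CPM, CKO 6.23 to 8.35 CPM, with 1 marker at 0) and neutrophil 6 of 7 (WT 51.5 to 54.1 CPM, CKO 128 to 139 CPM). The lists that fell were astrocyte 8 of 10 (WT 22826 to 23143 CPM, CKO 10098 to 10291 CPM), oligodendrocyte 4 of 8 (WT 13690.2 to 13806 CPM, CKO 12491 to 12789.7 CPM) and oligodendrocyte precursor 3 of 6 (WT 533 to 547 CPM, CKO 353 to 371 CPM); their part in the result was not tested.

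**Figure D4:**
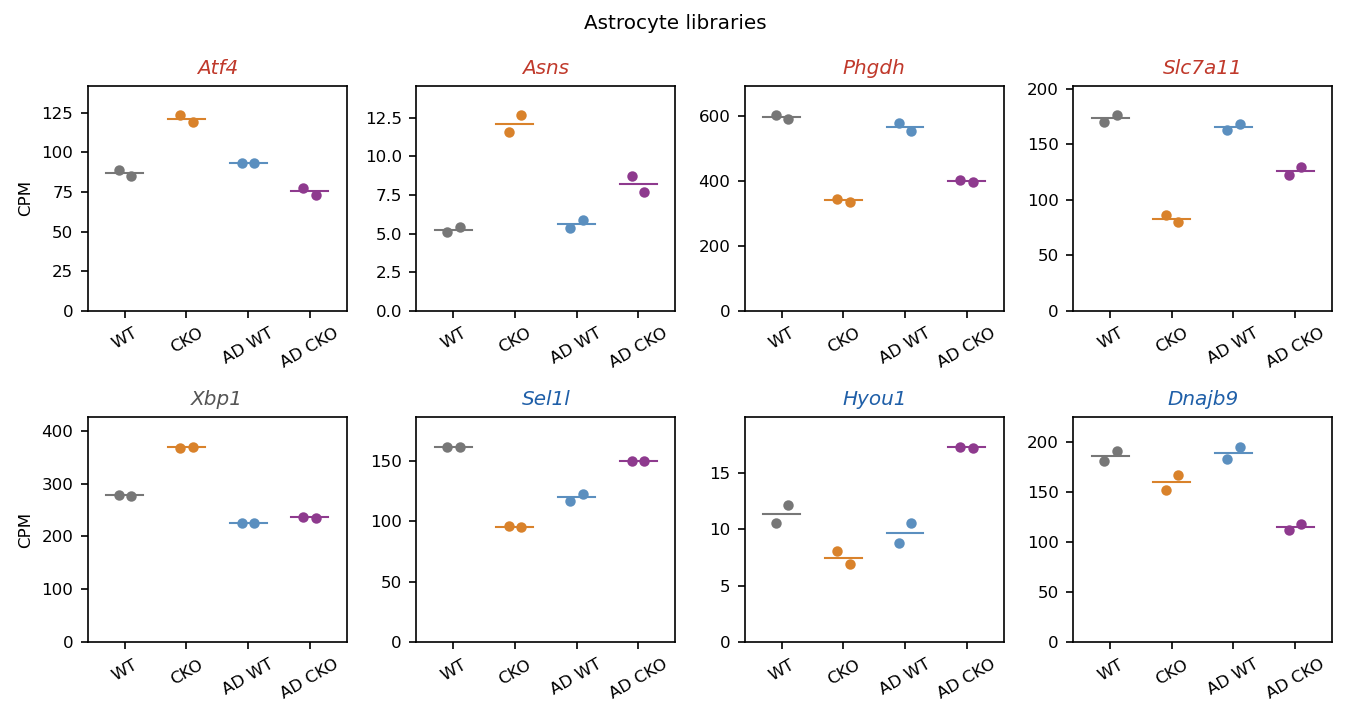
CPM (vertical axes, from 0) of 8 genes in the astrocyte libraries of the 4 groups (horizontal axes). Points are libraries and lines are means of 2. Atf4 and Xbp1 are highest in CKO, Slc7a11 and Sel1l lowest there, and Hyou1 is highest in AD CKO.

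Of the sensors, Eif2ak1, the haem-regulated eIF2 kinase, stood at 76.7 and 79.5 CPM in WT, 38.1 and 41.9 CPM in CKO, 68.8 and 71.6 CPM in AD WT, and 70.0 and 69.7 CPM in AD CKO. Only the CKO libraries were low. The change was -0.97 ± 0.06 (adjusted p = 6.89e-12) in CKO vs WT and -0.01 ± 0.06 (adjusted p = 0.937) in AD CKO vs AD WT. Eif2ak3 fell by 0.75 in CKO vs WT (adjusted p = 1.86e-06). Xbp1 stood at 279 and 277 CPM in WT, 368 and 369 CPM in CKO, 226 and 226 CPM in AD WT, and 236 and 235 CPM in AD CKO, rose by 0.41 ± 0.04 (adjusted p = 2.11e-08) in CKO vs WT, and was at 0.06 ± 0.04 (adjusted p = 0.235) in AD CKO vs AD WT. Its interaction of -0.34 ± 0.06 (adjusted p = 4.20e-05) became -0.10 and -0.01 with the first and the centred form of the length offset, and neither passed. Ern1 did not pass in any of the 5 comparisons.

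In the chaperone arm of CKO vs WT 2 genes rose and 11 of 17 fell (11.8% and 64.7%), against 31.6% and 32.4% of all genes tested. The arm's median was -0.22, against 0.01 over all genes. Sel1l and Syvn1, which together form the core of the degradation ligase, fell most. Sel1l stood at 161 and 161 CPM in WT and 96.0 and 94.9 CPM in CKO, a change of -0.76 ± 0.05 (adjusted p = 8.62e-12), and Syvn1 changed by -0.76 ± 0.06 (adjusted p = 1.27e-10). Hyou1, a large ER chaperone, fell by 0.59 (adjusted p = 3.41e-04). In AD CKO vs AD WT 11 of the 39 rose and 16 fell, against 25.1% and 27.0% of all. Hyou1 then rose, from 8.77 and 10.5 CPM in AD WT to 17.3 and 17.2 CPM in AD CKO, at 0.84 ± 0.12 (adjusted p = 3.79e-06). Sel1l rose by 0.32 ± 0.05 (adjusted p = 9.17e-06), a call lost with the first form of the length offset (0.09). Dnajb9, a cochaperone of BiP, fell by 0.71 (adjusted p = 4.22e-10) and Ddit4, an mTORC1 inhibitor, by 1.22 (adjusted p = 1.99e-10). The chaperone arm median there was -0.02, and -0.16 with the first form of the length offset. Over all genes the medians were -0.03 and -0.10, in that order. Calls lost in AD CKO vs AD WT with both forms, the values in that order, were Ddit3 (-0.08 and 0.0047), Dnajc3 (-0.09 and -0.01), Sdf2l1 (-0.17 and -0.08) and Canx (-0.07 and 0.02). The first form alone also ended Ppp1r15b and Sel1l, and the centred form alone Manf. Lists that rose here were cytosolic heat shock 8 of 12 (AD WT 3841 to 3894 CPM, AD CKO 4561 to 4686 CPM), microglia 6 of 10 (AD WT 1219 to 1241 CPM, AD CKO 1284 to 1314 CPM), oligodendrocyte 8 of 8 (AD WT 6469 to 6649.8 CPM, AD CKO 18313 to 18468 CPM), oligodendrocyte precursor 4 of 6 (AD WT 428 to 452 CPM, AD CKO 353 to 362 CPM), endothelial 4 of 7 (AD WT 2837 to 2865 CPM, AD CKO 3107 to 3128 CPM), fibroblast 4 of 5 (AD WT 73.0 to 80.5 CPM, AD CKO 88.5 to 90.5 CPM), ependymal and choroid 3 of 6 (AD WT 12813 to 13584 CPM, AD CKO 8802 to 9074 CPM) and border macrophage and monocyte 4 of 7 (AD WT 21.4 to 22.7 CPM, AD CKO 41.9 to 46.6 CPM). Lower were astrocyte 8 of 10 (AD WT 21903 to 22585 CPM, AD CKO 14042 to 14138 CPM), ependymal and choroid 3 of 6 (AD WT 12813 to 13584 CPM, AD CKO 8802 to 9074 CPM) and erythroid 5 of 5 (AD WT 417 to 508 CPM, AD CKO 94.5 to 104 CPM); their part in the result was not tested.

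The interaction in astrocytes was positive for 18 and negative for 14 genes, against 29.5% and 28.3% of all. The ATF4 arm median was -0.48 and the chaperone arm median 0.12, against -0.02 over all genes. Sel1l had 1.08 ± 0.07 (adjusted p = 1.57e-11), Hyou1 1.43 ± 0.18 (adjusted p = 3.29e-07), Ddit4 -1.57 ± 0.13 (adjusted p = 5.46e-10) and Atf4 -0.79 ± 0.08 (adjusted p = 1.01e-08). With the centred length offset 9 genes were negative in place of 14. Over all genes 4525 of 19546 were then negative in place of 5690 of 20116, and the median was 0.10 in place of -0.02. Calls of the interaction lost with both forms, the values in that order, were Ddit3 (0.04 and 0.14), Trib3 (-0.65 and -0.55), Chac1 (-1.32 and -1.22), Asns (-0.37 and -0.27), Eif2ak4 (0.18 and 0.28), Xbp1 (-0.10 and -0.01), Hspa5 (-0.10 and -0.01), Sdf2l1 (-0.20 and -0.10), Manf (-0.21 and -0.11), Syvn1 (0.05 and 0.14) and Edem1 (0.02 and 0.12). The first form alone also ended those of Sesn2 and Canx. Lists with positive calls were astrocyte 7 of 10 and oligodendrocyte 7 of 8, and lists with negative calls cytosolic heat shock 7 of 12, immediate early 17 of 19, microglia 10 of 10, endothelial 5 of 7, mural 6 of 7, ependymal and choroid 5 of 6, lymphocyte 4 of 5, neutrophil 6 of 7 and erythroid 5 of 5; their part in the result was not tested. In AD WT vs WT 5 rose and 9 fell, against 20.0% and 18.0% of all, and 3 rose without WT replicate 2 or without AD WT replicate 1. Ddit4, Ppp1r15a and Pdia3 rose, at 0.58, 0.29 and 0.24, and Eif2ak3, Atf6, Sel1l, Edem1, Psat1 and Xbp1 fell, at -0.54, -0.49, -0.43, -0.39, -0.33 and -0.30. The other 5 calls were less firm. Trib3 and Sdf2l1 (higher, at 0.63 and 0.41) and Eif2ak1 and Ppp1r15b (lower, at -0.16 and -0.27) were lost with both forms of the length offset and without WT replicate 2 or AD WT replicate 1. Eif2ak1 was also lost without WT replicate 1, AD WT replicate 2 or either AD CKO library, and Trib3 without WT replicate 1. Hspa5 (lower, at -0.17) was lost without AD WT replicate 1 (-0.13). The lists that rose in that comparison were immediate early 13 of 19 (WT 1368 to 1374 CPM, AD WT 1719.7 to 1784 CPM), microglia 10 of 10 (WT 526 to 533 CPM, AD WT 1219 to 1241 CPM), mural 6 of 7 (WT 784 to 813 CPM, AD WT 1159 to 1172 CPM), ependymal and choroid 6 of 6 (WT 7338 to 7573 CPM, AD WT 12813 to 13584 CPM), lymphocyte 3 of 5 (WT 1.42 to 1.53 CPM, AD WT 3.15 to 4.54 CPM, with 1 marker at 0) and erythroid 5 of 5 (WT 140.0 to 154 CPM, AD WT 417 to 508 CPM), and oligodendrocyte 8 of 8 (WT 13690.2 to 13806 CPM, AD WT 6469 to 6649.8 CPM), oligodendrocyte precursor 3 of 6 (WT 533 to 547 CPM, AD WT 428 to 452 CPM) and neutrophil 4 of 7 (WT 51.5 to 54.1 CPM, AD WT 29.5 to 35.6 CPM) fell; their part in the result was not tested. In AD CKO vs CKO 18 rose and 13 fell, against 31.4% and 28.4%, with Hyou1 at 1.20 ± 0.12 (adjusted p = 2.21e-08) and Atf4 at -0.69 ± 0.05 (adjusted p = 3.31e-10). Calls lost there with both forms of the length offset were Ddit3 (-0.17 and -0.05), Eif2ak3 (0.11 and 0.23), Atf6 (0.06 and 0.17), Dnajc3 (-0.19 and -0.08) and Sdf2l1 (-0.03 and 0.08). The first form alone ended Eif2ak4, Canx and Syvn1, and the centred form alone Asns and Slc3a2. Over AD CKO vs CKO the lists that rose were astrocyte 8 of 10 (CKO 10098 to 10291 CPM, AD CKO 14042 to 14138 CPM), oligodendrocyte 4 of 8 (CKO 12491 to 12789.7 CPM, AD CKO 18313 to 18468 CPM) and oligodendrocyte precursor 3 of 6 (CKO 353 to 371 CPM, AD CKO 353 to 362 CPM), and those that fell cytosolic heat shock 10 of 12 (CKO 6559 to 6578 CPM, AD CKO 4561 to 4686 CPM), immediate early 17 of 19 (CKO 3883 to 4051 CPM, AD CKO 1606 to 1703 CPM), microglia 9 of 10 (CKO 2104 to 2167 CPM, AD CKO 1284 to 1314 CPM), endothelial 5 of 7 (CKO 6795 to 6896 CPM, AD CKO 3107 to 3128 CPM), mural 6 of 7 (CKO 1852 to 1859 CPM, AD CKO 1223 to 1261 CPM), ependymal and choroid 3 of 6 (CKO 12134 to 13208 CPM, AD CKO 8802 to 9074 CPM), lymphocyte 3 of 5 (CKO 6.23 to 8.35 CPM, AD CKO 1.98 to 2.37 CPM, with 1 marker at 0) and neutrophil 7 of 7 (CKO 128 to 139 CPM, AD CKO 27.7 to 28.3 CPM); their part in the result was not tested.

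**Figure D5:**
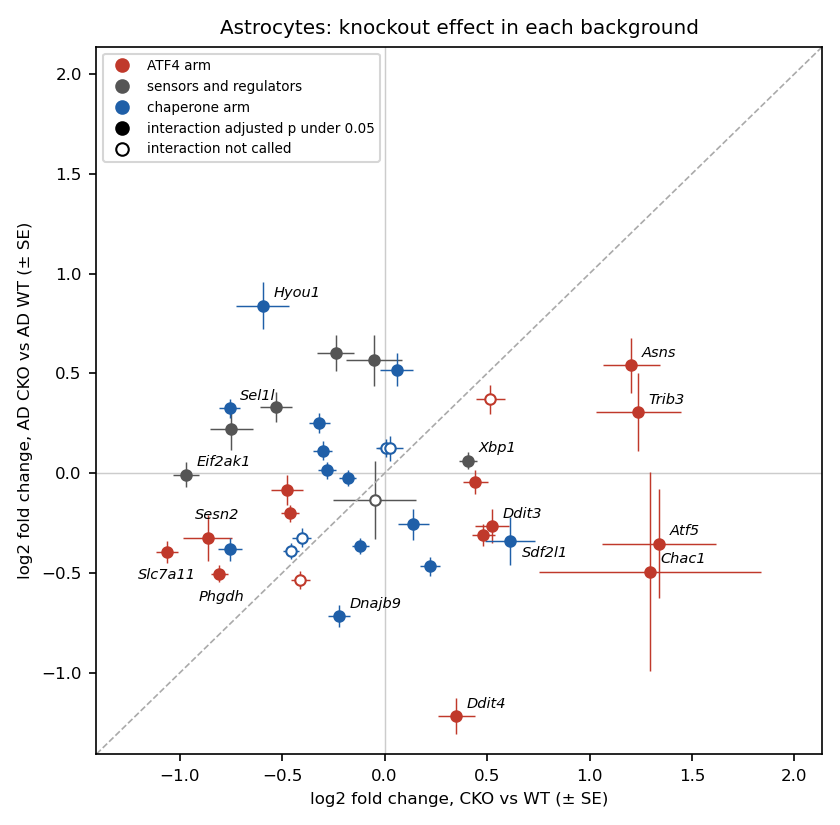
Log2 fold change of the 39 genes in astrocytes in CKO vs WT (horizontal) and in AD CKO vs AD WT (vertical), with bars of 1 SE, drawn as for microglia. Hyou1 lies at -0.59 and 0.84, and Ddit4 at 0.35 and -1.22.

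On the list of 31 other integrated stress response genes in CKO vs WT astrocytes, 5 of 31 tested genes rose and 18 fell, and on that of 37 other ER genes 6 of 37 tested genes rose and 24 fell. Of all genes tested 31.6% rose and 32.4% fell. Atf3 rose by 1.79 ± 0.09 and the amino acid transporter Slc1a4 fell by 1.47 ± 0.05 on the log2 scale. Sec61a1, the channel subunit of the translocon, fell by 0.72 ± 0.05.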

How the data were processed

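RNA-seq was analysed in 16 libraries, 8 of microglia and 8 of astrocytes, made from 10 ng of total RNA per the labels' protocols, which name TRIzol extraction, the SMART-Seq v4 kit and paired Illumina reads. The deposited tables hold expected counts per gene, estimated by the authors and not whole, for each library. The submitters' processing notes name fastp, HISAT2, StringTie and mm10. Which annotation and which counting step were used is not given in the sources used here, and the kit does not mark strand, so overlapping genes cannot be told apart.

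Counts were rounded to whole numbers, genes with low counts removed by edgeR's filterByExpr, and TMM scaling used. edgeR 4.0.16 (R 4.3.3) fitted 1 robust quasi-likelihood model per cell type over all 8 libraries, with a mean per group, and 5 contrasts. Benjamini-Hochberg adjustment ran over all tested genes, at a threshold of 0.05. The fit was tested on simulated counts. Alternatives were DESeq2 1.42.0, limma 3.58.1 (voom), other scaling and filters, the replicate number as a block, a length offset, the compared groups alone, other arm definitions and each library left out. The centring of the length offset was chosen after the data were seen, and so was the spread that decides whether an arm median moved: the replicate SD of the arm median is used, in place of that of the arm mean with every sign change counted. With the SD used, 32 of 196 arm medians moved, and 17 of 160 with a library left out. With the earlier one they were 45 and 31.

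All 39 genes may be named. Per comparison up to 8 risen and 8 fallen genes with the largest changes were chosen, with Atf4, Ddit3, Xbp1, Hspa5, Ern1, Eif2ak3 and Atf6 whatever their result, and up to 3 genes per direction of other lists. Other members were added after their values were seen, and the share of 50% that selects the marker lists was set after them too. The genes and lists were chosen with earlier results of these data known. Replicates of a group differed by more than sampling noise, and correlated on the log2 CPM scale at 0.985 or more. Replicate numbers are not stated to pair samples, so they were not treated as pairs. Over all genes, the deviations of samples with the same number correlated at -0.03 to 0.05, which cannot settle whether they pair. Gene positions are those of mm10 from the GENCODE annotation.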

Additional observations from a re-analysis of the deposited data

Results flagged for a closer look

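The effect of the knockout differed between the backgrounds with and without the AD model, by the test of the interaction, for 17 of the 39 genes in microglia and 32 in astrocytes. Of all genes tested, 5.53% were positive and 7.19% negative in microglia, and 29.5% and 28.3% in astrocytes. As log2 fold change with the model minus that without it, the microglia values above 0 were Phgdh 0.39, Slc3a2 0.42, Xbp1 0.43, Ppp1r15b 0.26, Hspa5 0.47, Hsp90b1 0.37, Dnajb9 0.36, Dnajc3 0.22, Sdf2l1 0.34, Calr 0.39, Pdia3 0.43, Pdia4 0.34, Pdia6 0.52, Manf 0.47 and Edem1 0.36, and those below 0 were Ddit4 -0.54 and Psat1 -1.17. The call of Ddit4 was lost with the first length offset, by DESeq2 and without any 1 library other than replicate 2 of WT. The call of Ppp1r15b was lost without any 1 library other than replicate 2 of WT, replicate 2 of AD WT and replicate 1 of AD CKO. The call of Dnajb9 was lost without replicate 1 of CKO, replicate 2 of AD WT or replicate 1 of AD CKO. The call of Dnajc3 was lost at a 1 CPM filter and without any 1 library other than replicate 1 of WT. In astrocytes the values above 0 were Sesn2 0.54, Psat1 0.26, Phgdh 0.30, Shmt2 0.39, Slc7a11 0.67, Eif2ak1 0.96, Eif2ak3 0.97, Eif2ak4 0.62, Atf6 0.84, Ppp1r15b 0.86, Hspa5 0.16, Hsp90b1 0.30, Hyou1 1.43, Canx 0.42, Pdia4 0.57, Sel1l 1.08, Syvn1 0.38 and Edem1 0.46, and those below 0 were Atf4 -0.79, Atf5 -1.69, Ddit3 -0.79, Trib3 -0.93, Chac1 -1.79, Ddit4 -1.57, Ppp1r15a -0.48, Asns -0.66, Xbp1 -0.34, Dnajb9 -0.49, Sdf2l1 -0.95, Pdia3 -0.25, Manf -0.40 and Herpud1 -0.69. The calls of Ddit3, Asns, Eif2ak4, Xbp1, Sdf2l1, Manf, Syvn1 and Edem1 were lost with both length offsets. The call of Trib3 was lost with both length offsets and without replicate 2 of CKO. The call of Chac1 was lost with both length offsets, by DESeq2 and without any 1 library other than replicate 2 of WT and replicate 1 of CKO. The call of Sesn2 was lost with the first length offset and without replicate 2 of WT. The call of Hspa5 was lost with both length offsets, at a 1 CPM filter and without replicate 1 of WT, replicate 1 of CKO, replicate 1 of AD WT or replicate 1 of AD CKO. The call of Canx was lost with the first length offset.

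Some genes passed the test in opposite directions in microglia and astrocytes, a difference that was not itself tested, since each cell type was fitted in its own table. As log2 fold change in microglia minus that in astrocytes, the values were Cebpg -0.72, Sesn2 1.80, Ppp1r15a -0.98, Psat1 1.27 and Sdf2l1 -0.78 in CKO vs WT and Psat1 1.53 in AD WT vs WT. They were Cebpg -0.57, Sesn2 1.01, Asns -1.46, Slc3a2 0.98, Dnajb9 0.96, Sdf2l1 0.50, Pdia4 -0.38, Herpud1 0.96 and Syvn1 0.54 in AD CKO vs AD WT and Sesn2 -1.002, Slc3a2 0.36, Xbp1 0.80, Sdf2l1 1.41 and Manf 0.89 in AD CKO vs CKO. Several of the calls behind these values were lost under alternatives. Sdf2l1 in microglia lost its call in CKO vs WT with the centred length offset (-0.11) and without replicate 2 of WT or replicate 1 of CKO. Sdf2l1 in astrocytes lost its call in CKO vs WT with both length offsets (0.03 and 0.02). Cebpg in microglia lost its call in AD CKO vs AD WT without replicate 1 of AD WT. Asns in microglia lost its call in AD CKO vs AD WT without replicate 2 of AD WT or replicate 2 of AD CKO. Dnajb9 in microglia lost its call in AD CKO vs AD WT without replicate 2 of AD WT or replicate 1 of AD CKO. Sdf2l1 in microglia lost its call in AD CKO vs AD WT by DESeq2 and without replicate 1 of AD WT, replicate 2 of AD WT or replicate 2 of AD CKO. Pdia4 in microglia lost its call in AD CKO vs AD WT with the first length offset (-0.11) and without replicate 2 of AD WT or replicate 2 of AD CKO. Syvn1 in microglia lost its call in AD CKO vs AD WT by DESeq2, with no filter and without any 1 library other than replicate 1 of WT, replicate 2 of WT and replicate 2 of CKO. Sesn2 in astrocytes lost its call in AD CKO vs AD WT by DESeq2 and without replicate 1 of AD WT or replicate 2 of AD CKO. Sdf2l1 in astrocytes lost its call in AD CKO vs AD WT with both length offsets (-0.17 and -0.08) and without replicate 1 of AD WT or replicate 2 of AD CKO. Xbp1 in microglia lost its call in AD CKO vs CKO without replicate 1 of CKO. Slc3a2 in astrocytes lost its call in AD CKO vs CKO with the centred length offset (-0.09), by DESeq2 and without replicate 1 of CKO, replicate 2 of CKO or replicate 2 of AD CKO. Sdf2l1 in astrocytes lost its call in AD CKO vs CKO with both length offsets (-0.03 and 0.08).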

How the results depend on the processing

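Over all alternatives other than leaving out a library, called genes kept direction and threshold in 1952 cases, lost the threshold in 96 and turned in sign in 15. With a library left out they kept both in 1732 and lost the threshold in 148. Medians are log2 fold changes. With the length offset as first set, microglia gave ATF4 arm median -0.0583 and chaperone arm median -0.21 in CKO vs WT, chaperone arm median 0.0264 in AD WT vs WT, ATF4 arm median 0.15 and chaperone arm median 0.15 in AD CKO vs AD WT, number risen 25, ATF4 arm median 0.12 and chaperone arm median 0.41 in AD CKO vs CKO and number fallen 1, ATF4 arm median 0.15 and chaperone arm median 0.43 in interaction. With the length offset as first set, astrocytes gave ATF4 arm median 0.0198, Ddit3 -0.12 and Herpud1 -0.0397 in CKO vs WT, ATF4 arm median -0.0362 and chaperone arm median -0.0577 in AD WT vs WT, ATF4 arm median -0.26, chaperone arm median -0.16, Dnajc3 -0.0937 and Canx -0.0670 in AD CKO vs AD WT, ATF4 arm median -0.20, chaperone arm median 0.0402 and Dnajc3 -0.19 in AD CKO vs CKO and ATF4 arm median -0.37, Ddit3 0.0396 and Hspa5 -0.10 in interaction. With the centred length offset, microglia gave ATF4 arm median 0.12 in AD CKO vs AD WT. With the centred length offset, astrocytes gave ATF4 arm median 0.00756, Ddit3 -0.13 and Herpud1 -0.0519 in CKO vs WT, ATF4 arm median -0.0192 in AD WT vs WT, ATF4 arm median -0.17, Ddit3 0.00471 and Dnajc3 -0.00876 in AD CKO vs AD WT, ATF4 arm median -0.0891, Dnajc3 -0.0798 and Sdf2l1 0.0846 in AD CKO vs CKO and number fallen 9, ATF4 arm median -0.27, Ddit3 0.14 and Hspa5 -0.00660 in interaction. With no low-count filter, microglia gave chaperone arm median -0.16 in CKO vs WT and chaperone arm median 0.37 in AD CKO vs CKO. With a filter at 1 CPM, astrocytes gave ATF4 arm median -0.34 in interaction. By DESeq2, microglia gave number fallen 1 in interaction. Without the 4 degradation genes, microglia gave chaperone arm median -0.19 in CKO vs WT, chaperone arm median 0.0477 in AD CKO vs AD WT and chaperone arm median 0.38 in AD CKO vs CKO. Without Atf5, Ddit4 and Slc7a11, astrocytes gave ATF4 arm median -0.23 in AD CKO vs AD WT, ATF4 arm median -0.24 in AD CKO vs CKO and ATF4 arm median -0.32 in interaction. Leaving out each library in turn gave, in microglia, ATF4 arm median -0.13 to 0.12 in CKO vs WT, chaperone arm median -0.17 to -0.12 in CKO vs WT, number risen 3 to 6 in AD WT vs WT, number fallen 4 to 6 in AD WT vs WT, ATF4 arm median -0.0881 to 0.04996 in AD WT vs WT, number risen 7 to 14 in AD CKO vs AD WT, number fallen 5 to 9 in AD CKO vs AD WT, ATF4 arm median -0.0179 to 0.0926 in AD CKO vs AD WT, chaperone arm median 0.0448 to 0.13 in AD CKO vs AD WT, number fallen 1 to 3 in AD CKO vs CKO, chaperone arm median 0.31 to 0.39 in AD CKO vs CKO and number fallen 1 to 2 in interaction. Leaving out each library in turn gave, in astrocytes, number risen 3 to 6 in AD WT vs WT, ATF4 arm median -0.33 to -0.22 in AD CKO vs AD WT, ATF4 arm median -0.34 to -0.16 in AD CKO vs CKO and ATF4 arm median -0.52 to -0.41 in interaction. Medians over all genes moved with the length offset as well. With its first and centred forms they were -0.06 and -0.08 in astrocytes in CKO vs WT. In the microglia interaction they were 0.13 and 0.02. The cause of all these shifts was not tested. With the replicate number as a block, the number risen in AD WT vs WT astrocytes was 8 in place of 5, and every other count stayed within 1.5 times its value. For microglia in CKO vs WT the block gave 7 risen and 14 fallen genes. Over all genes it gave 3214 risen and 2928 fallen there, in place of 3059 and 2756. In AD WT vs WT astrocytes 4785 of all genes rose with the block, in place of 4023. Whether the numbers pair the samples is not stated, and correlations over all genes cannot settle it.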

Other observations

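The subunits of eIF2 and of its exchange factor eIF2B, with the kinase gene Eif2ak2, are not among the 39 genes. In CKO vs WT microglia Eif2ak2, the kinase PKR that double-stranded RNA activates, rose by 0.62 ± 0.08 on the log2 scale, the only one of the 9 genes with a call there, against 17.7% of all genes risen. In AD CKO vs AD WT it rose by 0.34 ± 0.08, with Eif2b1 at 0.35 ± 0.10 and Eif2s3x at -0.27 ± 0.07. Of the 9 genes 3 rose and 1 fell there, against 17.0% and 15.0% of all. In CKO vs WT astrocytes Eif2s1, which encodes the subunit that is phosphorylated, rose by 0.39 ± 0.05, and in AD CKO vs CKO it fell by 0.57 ± 0.05. Of the 9 genes 4 rose and 2 fell in CKO vs WT astrocytes, against 31.6% and 32.4% of all. In AD CKO vs CKO 2 rose and 5 fell, against 31.4% and 28.4%. These genes were not read with the length offset.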
